A study of Mus musculus with 2 samples.

Results

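The 10 core genes of the circadian clock were followed by symbol in heart RNA: the transcriptional activators Arntl, Clock and Npas2, which form the positive arm, and the repressors Per1, Per2, Per3, Cry1, Cry2, Nr1d1 and Nr1d2, which form the negative arm. All 10 matched an Ensembl identifier of GENCODE M21 with its version, among 55401 identifiers in all, of which 15697 reached 1 CPM (a count divided by its library size after scaling) in at least 1 library. RNA was sequenced from hearts of C57BL/6 mice in 2 libraries. The dioscin library came from mice with transverse aortic constriction (TAC), an operation in which a suture narrows the aortic arch so that the left ventricle pumps against raised pressure. They also received dioscin, a steroidal saponin from plants, for 4 weeks. The TAC library came from mice with the same surgery and no dioscin named in its treatment label. The protocol text, worded alike for both, does not say which library was treated, and both groups carry TAC, so hearts without surgery are not analysed here. The labels give neither age, nor sex, nor the number of hearts in a library, nor the hour at which hearts were collected.

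The mammalian clock is a feedback loop of transcription. BMAL1, the product of Arntl, pairs with CLOCK or NPAS2 and activates genes through E-box sequences, among them the period (Per) and cryptochrome (Cry) genes, whose proteins then repress that pair. In a second loop the nuclear receptors REV-ERB alpha and beta, encoded by Nr1d1 and Nr1d2, repress Arntl, while the ROR receptors activate it through the same sequence. In mouse heart the transcripts of both arms cycle over the day, with Arntl and Nr1d1 peaking at opposite times. With 1 library a group, an effect of dioscin and the hour of collection cannot be told apart. Nor can either be told from the tissue content of the libraries or the difference between single mice.

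The dioscin library held 17612259 counts in genes and the TAC library 16782741. The 10 clock genes took 6246 counts in the dioscin library and 5849 in the TAC library, or 355 and 349 CPM before scaling. Values below are CPM after TMM scaling, and each ratio has the dioscin library on top, with its exact 95% counting interval. That interval covers counting error only, no p-value can be given, and a difference is called higher or lower when it reached 2-fold with an interval that excludes 1.

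The libraries differed in markers of other tissues. Of 6 markers of ventricular muscle, 5 were abundant in both libraries with ratios between 0.785 and 1.59, and Irx4, a transcription factor of the ventricle, was 4.202-fold lower, at 12.3 CPM in the dioscin library and 51.9 CPM in the TAC library. Over all genes, 10.5% were called as higher and 8.77% as lower, the shares beside which the marker counts here stand. Of 6 atrial markers, 5 reached 1 CPM and all 5 were higher. Without Nppa, which stressed ventricles also express, the atrial markers summed to 4656 CPM in the dioscin library and 3.996 CPM in the TAC library, where Sln had 1 count and Mybphl and Bmp10 none. Transcripts that define atrial muscle were thus at or near 0 in the TAC library. Of 8 mesothelial markers 7 were higher. Wt1 was not, at 15.4 CPM in the dioscin library and 16.0 CPM in the TAC library, a ratio of 0.965 (0.812 to 1.15). All 8 summed to 153 CPM in the dioscin library and 18.5 CPM in the TAC library. Without Wt1, the most abundant of them in the TAC library, the sums were 138 and 2.55 CPM. Krt8 and Krt18 had 0 counts in the TAC library. Of 6 fat cell markers 5 were higher, and without Fabp4, which endothelium also expresses, they summed to 30.7 CPM in the dioscin library and 0.811 CPM in the TAC library, with Cidec and Plin1 at 0 counts there. Markers of B cells, neutrophils and T cells lay the other way, at low levels. Of those listed, 5 of 6 B cell markers were lower, as were 3 of 4 neutrophil markers and 2 of 5 T cell markers. In these lists 5, 3 and 3 genes reached 1 CPM. The sums were 3.86, 5.43 and 4.85 CPM in the dioscin library and 17.1, 19.1 and 11.003 CPM in the TAC library. Macrophage markers did not follow: 1 of 5 was higher, Lyve1 at 9.67-fold, and none lower. Their sums were 194 CPM in the dioscin library and 108 CPM in the TAC library. Among 6 fibroblast, 5 endothelial and 4 smooth muscle markers, 2, 1 and 1 were higher and none lower. The part of these tissues in the clock values was not tested, and with 1 library a group it cannot be told apart from an effect of dioscin. For a cell type present in both libraries, fewer cells and less RNA per cell cannot be told apart in bulk RNA.

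The clock genes did not differ as a block, and the negative arm divided. Per1, Per2, Cry1 and Cry2 had ratios above 1 in the dioscin library, whereas Per3, Nr1d1 and Nr1d2 had ratios below 1. The positive arm moved less, with all 3 ratios between 0.806 and 1.27. By the 2-fold rule, 2 of the 10 genes were higher, Per1 and Per2, and none was lower, beside 19.3% of all genes called in either direction, 10.5% as higher and 8.77% as lower. A share of 2 in 10 is near that background. Among the 7012 genes whose mean CPM lay within the range of the clock genes, 9.8% were called in either direction, 6.12% as higher and 3.68% as lower. At 1.5-fold, 4 clock genes were higher and 3 lower, beside 38.2% of all genes in either direction, 20.3% as higher and 17.9% as lower. In the range of the clock genes these shares were 29.9%, 16.8% and 13.1%. With TMM scaling all 10 counting intervals excluded 1, as did those of 67.1% of all genes and 74.3% of the genes in that range.

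**Figure D1:**
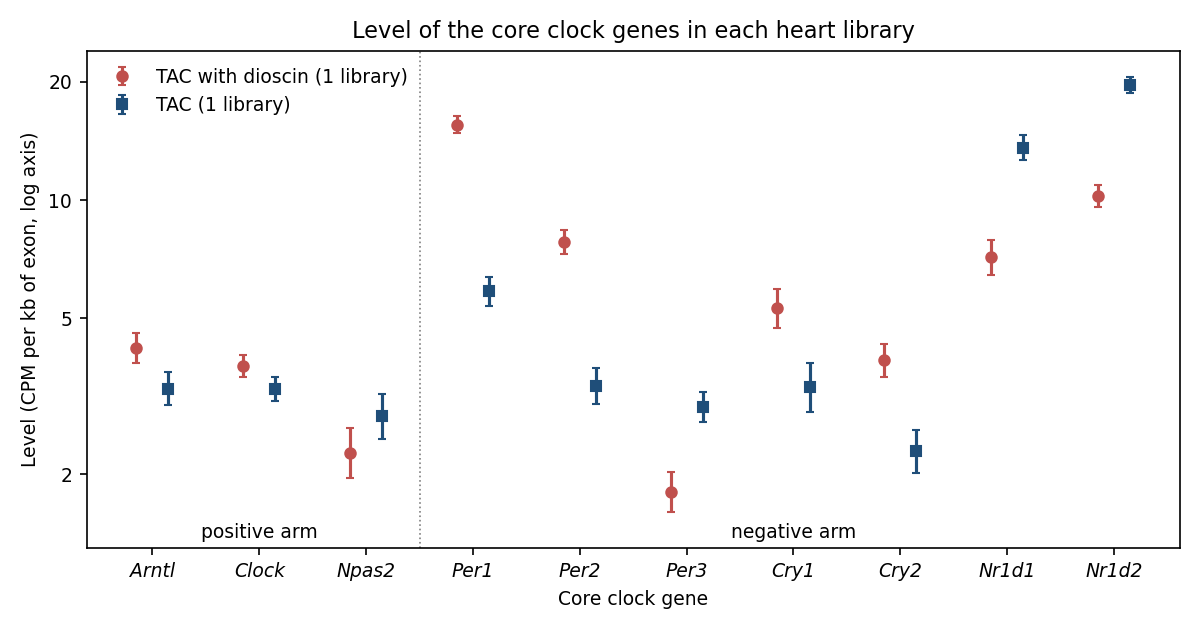
Level of each clock gene (CPM per kilobase of exon, log axis) in the dioscin library (circles, left of each pair) and the TAC library (squares, right). Bars are exact 95% Poisson intervals of the count. Per1, at 15.6, tops the dioscin library and Nr1d2, at 19.7, tops the TAC library.

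The positive arm was close to level in both libraries. Arntl (ENSMUSG00000055116.8, chr7:113207465-113314126, plus strand of GRCm38), the non-redundant partner of the activator pair, had 541 counts in the dioscin library and 430 in the TAC library. This is 31.6 CPM (29.0 to 34.4) in the dioscin library and 24.9 CPM (22.6 to 27.4) in the TAC library, a ratio of 1.27 (1.12 to 1.44). Clock (ENSMUSG00000029238.11, chr5:76209868-76304792, minus strand), which encodes the partner of BMAL1 in most tissues, had 887 counts in the dioscin library and 782 in the TAC library, a ratio of 1.14 (1.04 to 1.26). Both genes were slightly higher in the dioscin library, and for neither did the difference approach 2-fold.

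Npas2 (ENSMUSG00000026077.15, chr1:39193731-39363236, plus strand), a paralog of Clock that can stand in for it, was the positive-arm gene with a ratio below 1. It had 186 counts in the dioscin library and 233 in the TAC library, or 10.9 CPM (9.36 to 12.5) and 13.5 CPM (11.8 to 15.3), and the Poisson intervals of the 2 levels overlap. The ratio was 0.806 (0.661 to 0.981). Relative to Arntl within the same library, and so without any scaling between libraries, Npas2 stood at 0.540 per exonic length in the dioscin library and at 0.851 in the TAC library, a quotient of 0.634 (0.5004 to 0.804). Arntl relative to Clock did not differ beyond counting error, with a quotient of 1.11 (0.943 to 1.305).

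The period genes encode the PER proteins, which carry the cryptochromes into the nucleus as the repressing complex. Per1 (ENSMUSG00000020893.17, chr11:69095217-69109960, plus strand), which also responds acutely to glucocorticoids and to cyclic AMP, had 1500 counts in the dioscin library and 569 in the TAC library. Its level was 87.6 CPM (83.3 to 92.2) in the dioscin library and 32.95 CPM (30.3 to 35.8) in the TAC library, 2.66-fold higher (2.41 to 2.93). Among the 15697 genes, 5.91% had a ratio as high or higher. Per2 (ENSMUSG00000055866.9, chr1:91415982-91459324, minus strand), the period gene whose loss disrupts the rhythm of mice most, had 785 counts in the dioscin library and 340 in the TAC library. Its level was 45.9 CPM (42.7 to 49.2) in the dioscin library and 19.7 CPM (17.7 to 21.9) in the TAC library, 2.33-fold higher (2.05 to 2.65). Per1 and Per2 kept their proportion to each other, with a quotient of 1.14 (0.970 to 1.34).

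Per3 (ENSMUSG00000028957.12, chr4:151003652-151044665, minus strand), which is dispensable for rhythm in mice, went the other way. It had 297 counts in the dioscin library and 493 in the TAC library, or 17.4 CPM (15.4 to 19.4) and 28.5 CPM (26.1 to 31.2). The level in the dioscin library was 1.64-fold lower (1.42 to 1.91), which is inside the 2-fold limit. Per1 stood at 8.62 times Per3 per exonic length in the dioscin library and at 1.97 times in the TAC library, a quotient of 4.38 (3.67 to 5.22). For Per2 the same quotient was 3.83 (3.15 to 4.67). The period family thus did not move together.

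The cryptochromes are the main repressors of the activator pair. Cry1 (ENSMUSG00000020038.10, chr10:85131700-85185064, minus strand) had 303 counts in the dioscin library and 193 in the TAC library, or 17.7 CPM (15.8 to 19.8) and 11.2 CPM (9.66 to 12.9). Cry2 (ENSMUSG00000068742.11, chr2:92403646-92434043, minus strand) had 423 counts in the dioscin library and 250 in the TAC library, or 24.7 CPM (22.4 to 27.2) and 14.5 CPM (12.7 to 16.4). The ratio was 1.58 (1.32 to 1.91) for Cry1 and 1.71 (1.46 to 2.004) for Cry2. Both were above 1 and below the 2-fold limit, and the 2 genes did not differ from each other beyond counting error (quotient of Cry1 to Cry2 0.928, 0.726 to 1.19).

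Nr1d1 and Nr1d2 had the lowest ratios of the 10 genes, and at nearly the same value. Nr1d1 (ENSMUSG00000020889.11, chr11:98767932-98775333, minus strand) had 376 counts in the dioscin library and 722 in the TAC library, or 22.0 CPM (19.8 to 24.3) and 41.8 CPM (38.8 to 45.0), 1.90-fold lower (1.68 to 2.16). Nr1d2 (ENSMUSG00000021775.11, chr14:18204054-18239127, minus strand) had 948 counts in the dioscin library and 1837 in the TAC library, or 55.4 CPM (51.9 to 59.0) and 106.4 CPM (101.6 to 111.4), 1.92-fold lower (1.78 to 2.08). Relative to each other the pair stayed level, with Nr1d1 at 0.697 of Nr1d2 per exonic length in the dioscin library and at 0.691 in the TAC library, a quotient of 1.01 (0.868 to 1.17). The 2-fold call on this pair depends on the scaling: with libraries scaled by total counts in genes their log2 ratios were -1.01 and -1.02 and both passed as lower, against -0.93 and -0.94 with TMM. The exons of Nr1d1 overlap those of Thra, a thyroid hormone receptor gene on the opposite strand, over 263 bases or 8.55% of its exonic length, and a kit that does not mark strand cannot assign reads there. Thra itself had 1124 counts in the dioscin library and 1290 in the TAC library, a ratio of 0.879 (0.811 to 0.953).

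**Figure D2:**
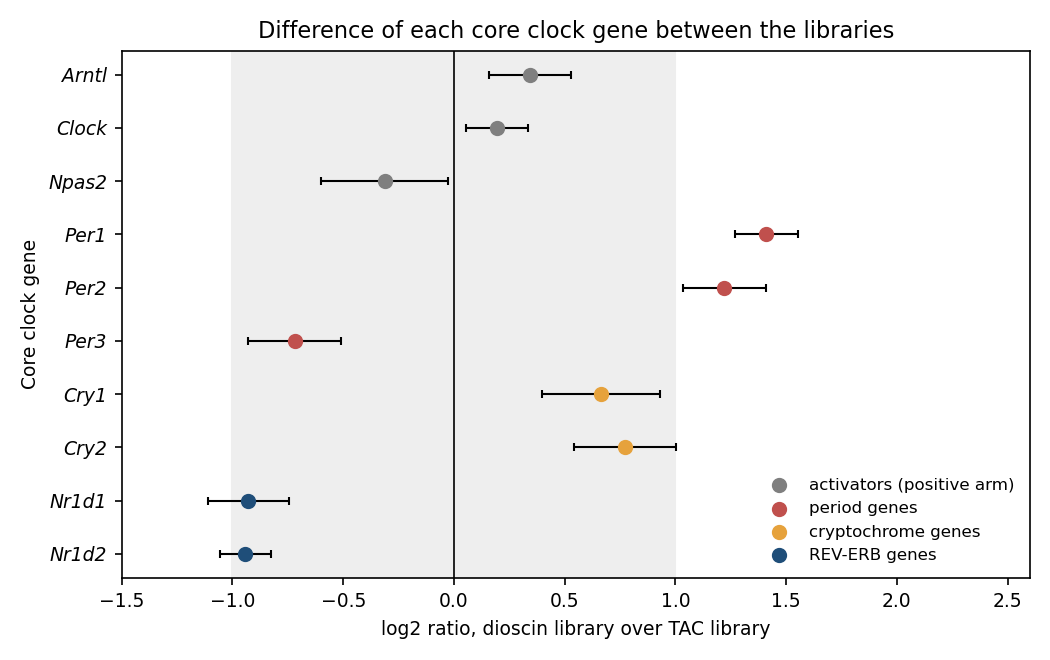
Log2 ratio (dioscin library over TAC library) of each clock gene, with exact 95% counting intervals as bars and differences under 2-fold shaded. Per1 (1.41) and Per2 (1.22) lie to the right of the shaded band, and Nr1d1 (-0.93) and Nr1d2 (-0.94) sit near its left edge.

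Ordered by level per kilobase of exon, the top of the list changed between the libraries. In the dioscin library Per1 was first at 15.6 CPM per kilobase, Nr1d2 next at 10.2 and Per2 after it at 7.83, not apart from Nr1d1 at 7.14. In the TAC library Nr1d2 was first at 19.7, Nr1d1 next at 13.6 and Per1 after it at 5.85. The next 7 genes of the TAC library, from Per2 at 3.36 to Cry2 at 2.29, each had a counting interval that overlapped that of its neighbour. The lowest gene was Per3 in the dioscin library, at 1.81 and not apart from Npas2 at 2.27, and Cry2 in the TAC library. Summed over each arm, the difference nearly vanished: the 7 negative-arm genes held 51.8 CPM per kilobase in the dioscin library and 51.1 in the TAC library, and the 3 positive-arm genes 10.2 and 9.43.

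**Figure D3:**
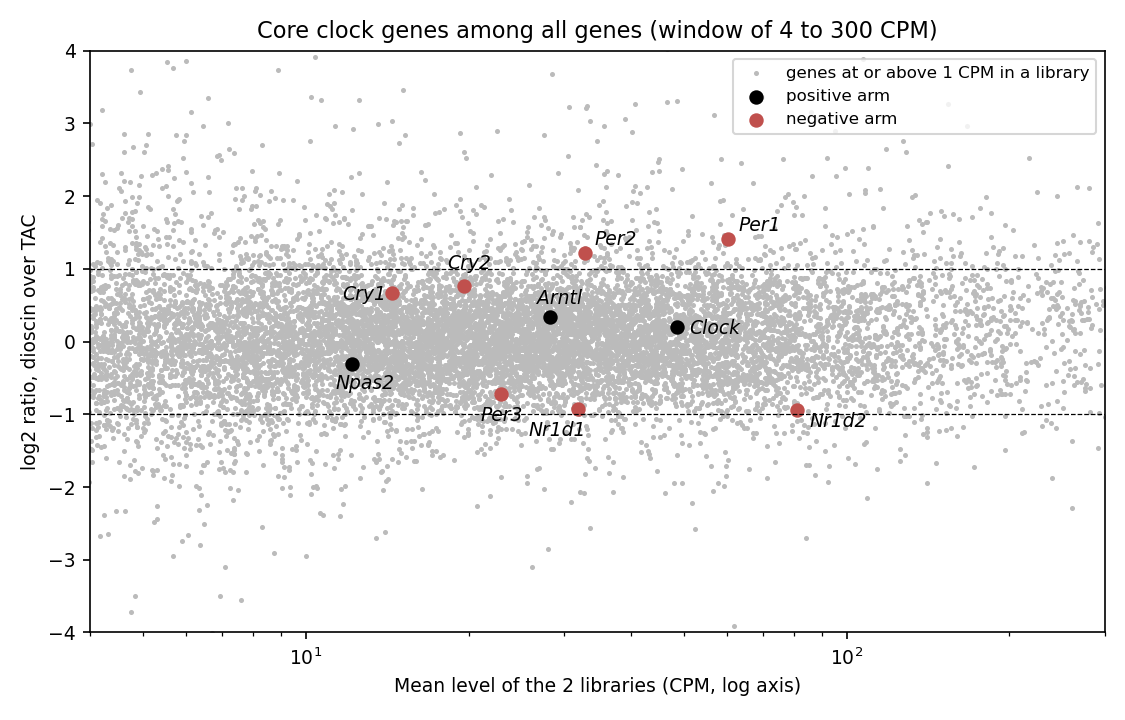
Log2 ratio (dioscin library over TAC library) against mean CPM (log axis) for genes at or above 1 CPM (grey), with the positive arm in black and the negative arm in red. Dashed lines mark 2-fold, and 11619 genes fall in the window drawn. Per1 and Per2 lie above the upper line, and Nr1d1 and Nr1d2 just inside the lower one.

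Set against each other, the arms differed gene by gene and not as wholes. The median log2 ratio was 0.66 for the negative arm, with values between -0.94 and 1.41, and 0.19 for the positive arm, with values between -0.31 and 0.34. Over all 15697 genes the median was 0.01. The negative-arm median rests on which genes are taken: it was 0.77 for the Per and Cry genes, -0.72 for the Per and Nr1d genes, and the mean of all 7 was 0.21. The 7 negative-arm genes and 3 positive-arm genes give 21 ratios within a library that no scaling between libraries can change. Between the libraries, 11 of these were higher in the dioscin library, 9 were lower and 1 could not be told from level by its counting interval.

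Relative to Arntl, Per1 stood at 3.70 per exonic length in the dioscin library and at 1.77 in the TAC library, a quotient of 2.095 (1.78 to 2.46). Nr1d1, whose product represses Arntl, stood at 1.70 relative to Arntl in the dioscin library and at 4.11 in the TAC library, a quotient of 0.414 (0.345 to 0.496). Nr1d2 gave a quotient of 0.410 (0.352 to 0.477) on the same footing. Cry1 relative to Arntl was the ratio not told from level, with a quotient of 1.25 (0.995 to 1.57). The widest quotient between a pair of clock genes examined was 5.11 (4.50 to 5.80), for Per1 relative to Nr1d2. Since genes share the same 2 libraries, the 21 ratios are not independent of each other.

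**Figure D4:**
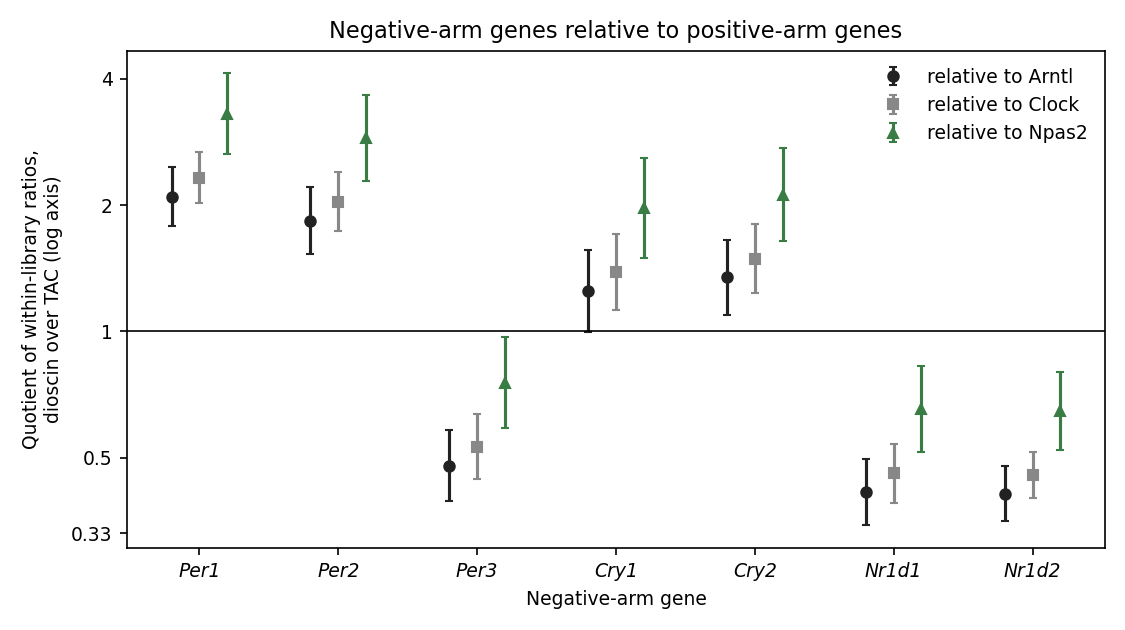
Quotient of within-library ratios (dioscin over TAC, log axis) for each negative-arm gene relative to Arntl (circles), Clock (squares) and Npas2 (triangles), with exact 95% counting intervals. Per1, Per2, Cry1 and Cry2 lie above 1 relative to each activator, except that the interval of Cry1 relative to Arntl spans 1, and Per3, Nr1d1 and Nr1d2 lie below 1.

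Stretches before the annotated starts are shown for 6 negative-arm genes, with ratios on both sides of 1. Each stretch holds a match of letters to a short motif named below. Only the letters of the motif were searched, without the bases that flank it. They come from RefSeq on GRCm38.p6, read 5′ to 3′ on the strand of the gene, and 9 of the 10 clock genes, all but Per2, matched a window of 250 bases before to 50 after a start, with 13 windows in all. Capitals mark the E-box CACGTG and the related E-prime box CACGTT, which reads AACGTG on the opposite strand. They also mark the D-box TTATGTAA and the core AGGTCA of the REV-ERB and ROR site, which reads TGACCT on the opposite strand. In the second Per1 stretch they mark TGACGT, the start of the cyclic AMP response element.
Per1 (first start, chr11:69098769-69098828, plus strand): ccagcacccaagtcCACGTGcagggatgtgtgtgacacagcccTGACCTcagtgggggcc
Per1 (second start, chr11:69100002-69100051, plus strand): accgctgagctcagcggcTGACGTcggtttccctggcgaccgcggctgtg
Per3 (chr4:151044806-151044880, minus strand): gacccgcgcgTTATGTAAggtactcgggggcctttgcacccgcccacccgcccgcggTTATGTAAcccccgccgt
Cry1 (chr10:85185095-85185149, minus strand): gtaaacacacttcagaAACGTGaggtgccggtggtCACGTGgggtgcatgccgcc
Cry2 (chr2:92434210-92434254, minus strand): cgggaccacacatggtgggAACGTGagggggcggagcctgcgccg
Nr1d1 (chr11:98775378-98775427, minus strand): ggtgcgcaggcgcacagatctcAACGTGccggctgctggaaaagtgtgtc
Nr1d2 (chr14:18239157-18239201, minus strand): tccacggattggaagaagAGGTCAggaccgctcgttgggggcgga
Searched on both strands, CACGTG was in the windows of Per1 and Cry1 and in 7.15% of all 32851 windows, and CACGTT in those of Cry1, Cry2 and Nr1d1 and in 4.68% of all. TTATGTAA occurred 2 times before the start of Per3, at -205 to -198 and -158 to -151, and in 0.938% of all windows. AGGTCA was in windows of Arntl, Clock, Per1 and Nr1d2 and in 16.3% of all, and TGACGT in the second Per1 window and in 7.51% of all. The full cyclic AMP element TGACGTCA, which contains TGACGT, matched no clock gene window and 1.79% of all. Within these windows the E-box CACGTG stood before Per1 and Cry1, both with ratios above 1. CACGTT stood before Cry1 and Cry2, with ratios above 1, and Nr1d1, with a ratio below 1. Sequence outside the windows was not searched, and a link between motif and ratio was not tested. A match of letters is a description of the sequence and not a bound site.

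Rora, a nuclear receptor that activates Arntl through the site the REV-ERBs bind, had 447 counts in the dioscin library and 261 in the TAC library, a ratio of 1.73 (1.48 to 2.02). That is above 1 and inside the 2-fold limit, whereas Nr1d1 and Nr1d2 had ratios below 1. Rorb, its paralog, was below 1 CPM in both libraries.

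Of 6 further repressors and partners, 2 were lower and none higher, beside 8.77% and 10.5% of all genes, with a median log2 ratio of -0.998. Timeless, a partner of replication forks in mammals named for a fly clock gene, was 3.02-fold lower (2.68 to 3.41), with 369 counts in the dioscin library and 1125 in the TAC library. Bhlhe41, an E-box repressor of the clock, was 2.55-fold lower (1.97 to 3.33), with 83 counts in the dioscin library and 214 in the TAC library. Its paralog Bhlhe40 had a ratio of 0.838 (0.724 to 0.970), and Tipin, the partner of Timeless, 0.764 (0.622 to 0.935). Arntl2, a paralog of Arntl, and Ciart, a repressor of the activator pair, had ratios of 0.501 (0.387 to 0.641) and 0.501 (0.328 to 0.744), just inside the limit, and 4 of the 6 were lower under 4 of the 5 other scalings.

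Most genes that modify or assist the clock proteins lay inside the 2-fold limit. Of 16 measured kinases, ubiquitin ligases and proteases of PER and CRY, none passed the 2-fold rule, beside 19.3% of all genes. Among genes in the CPM range of the clock genes the share called was lower, at 9.8%. The median log2 ratio of the 16 was 0.09, with values between -0.36 and 0.60. The kinase gene Csnk1a1 had a ratio of 1.42 (1.33 to 1.51). Of 16 coregulators 1 was higher and none lower, beside 10.5% and 8.77% of all genes: Tbl1xr1, a subunit of the NCoR repressor complex, was 2.18-fold higher (1.88 to 2.53). Ncor1, the scaffold of that complex, which REV-ERBs recruit, had a ratio of 1.23 (1.15 to 1.31).

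The PAR bZIP factors carry the clock to its targets through D-boxes, and they too divided. Dbp, a direct target of the activator pair, was 2.92-fold lower (2.33 to 3.72), with 100 counts in the dioscin library and 296 in the TAC library. Hlf was 2.14-fold higher (1.65 to 2.82), with 179 counts in the dioscin library and 84 in the TAC library. Tef had a ratio of 1.27 (1.19 to 1.36), and the D-box repressor Nfil3 0.980 (0.834 to 1.15).

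Of 15 genes listed as clock output in heart, 5 were higher and none lower, beside 10.5% and 8.77% of all genes, with a median log2 ratio of 0.75. Pdk4, a kinase that restrains glucose oxidation, was 27.5-fold higher (25.7 to 29.5), with 24189 counts in the dioscin library and 887 in the TAC library. Klf15, a regulator of cardiac metabolism, was 5.37-fold higher (4.60 to 6.33), with 992 counts in the dioscin library and 186 in the TAC library. Ucp3, a mitochondrial carrier, was 9.63-fold higher (8.79 to 10.6), and Wee1, a cell cycle kinase with E-boxes in its promoter, 2.19-fold higher (1.61 to 3.02). Several of these genes are also known targets of glucocorticoids or of fatty acids. Kcnip2, a subunit of the transient outward potassium channel, had a ratio of 0.750 (0.700 to 0.802).

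Per1 shares stimuli with genes outside the clock, and the median log2 ratios of the lists of these had opposite signs. Of 10 glucocorticoid-induced genes, 8 were higher and none lower, beside 10.5% and 8.77% of all genes, with a median log2 ratio of 2.47. Fkbp5, a chaperone partner of the glucocorticoid receptor, was 6.79-fold higher (5.74 to 8.12), with 1032 counts in the dioscin library and 153 in the TAC library. Klf9 was 3.02-fold higher (2.81 to 3.26) and Sgk1 2.595-fold (2.45 to 2.75), while Dusp1 had a ratio of 1.01 (0.944 to 1.08). Of 10 genes induced through CREB and SRF, 4 were lower and 1 higher, beside 8.77% and 10.5% of all genes, with a median log2 ratio of -0.82. Nr4a1, a nuclear receptor of the immediate early response, was 3.27-fold lower (2.95 to 3.63), and Nr4a3 5.14-fold higher (3.53 to 7.92). The part of either stimulus in the values of Per1 and Per2 was not tested.

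**Figure D5:**
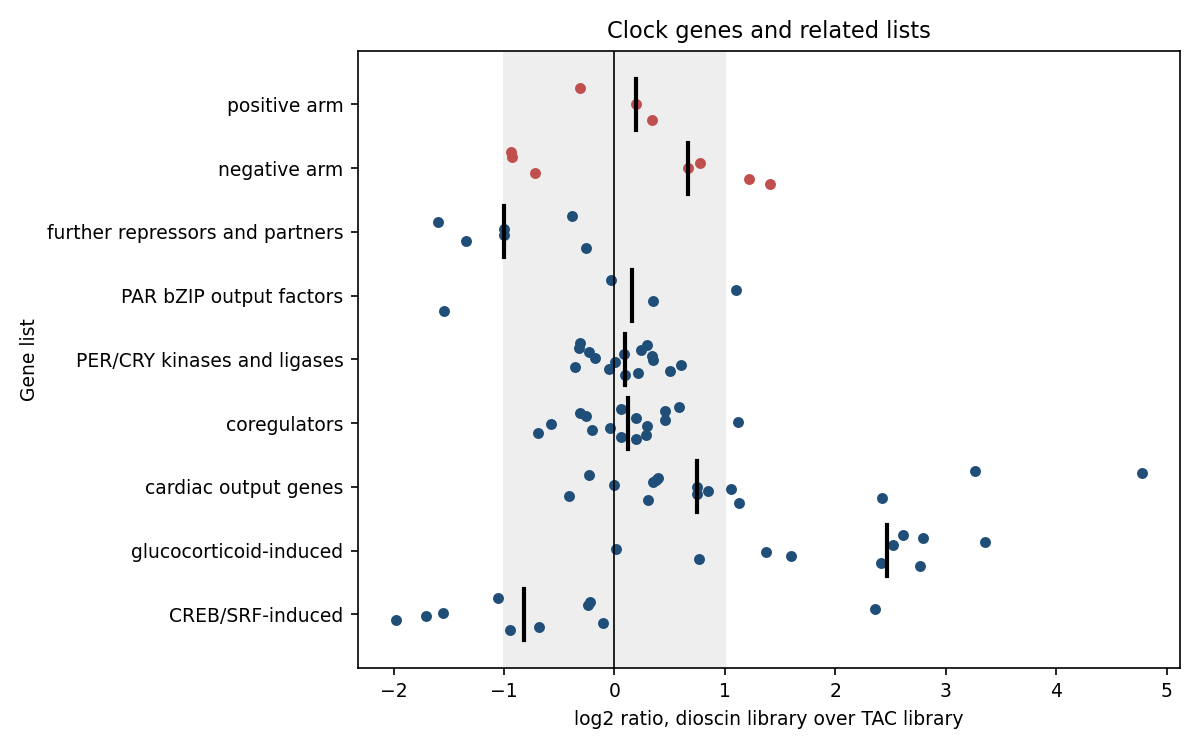
Log2 ratio (dioscin library over TAC library) for genes of the clock arms (red) and of related lists (blue) that reached 1 CPM, with the list median as a black bar and differences under 2-fold shaded. The glucocorticoid-induced list has its median at 2.47, the kinases and ligases at 0.09 and the CREB and SRF list at -0.82.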

How the data were processed

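RNA was extracted with Trizol and libraries were made with the Illumina TruSeq RNA kit from 1 ug of total RNA, per the labels' protocols. The authors deposited raw counts of reads per gene, made with HISAT2 2.1.0 and HTSeq on mm10 per the submitters' processing notes; for the annotation release, HTSeq version and strand setting, the sources used here give nothing. Reads counted to no gene, in 5 HTSeq lines, were left out. Reads with several alignments were 36.5% of all counts, those lines included, in the dioscin library and 38.2% in the TAC library.

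Of the identifiers, 54349 matched GENCODE M21 with the version and 55141 without it. Counts were scaled with TMM in edgeR 4.0.16 (R 4.3.3). Log2 ratios used a pseudocount of 0.5, and intervals are exact 95% Clopper-Pearson intervals of the 2 counts (scipy 1.17.1). A gene was called when it had at least 1 CPM in a library, a ratio of at least 2 and an interval without 1. The rule was also run on simulated counts that held counting error only. Those counts have no differences between mice, so the run cannot show how often such differences lead to a call. Quotients of within-library ratios have exact conditional intervals. Levels per kilobase used the merged exons of a gene. With 1 library a group no test was made. All 10 clock genes are named, and of each related list up to 6 called genes by interval bound and up to 3 others by abundance; not all of these are printed, and some are not reported here. The clock genes and all lists were chosen with earlier results of these data known, and the groupings within the negative arm after its values were seen.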

Additional observations from a re-analysis of the deposited data

How the results depend on the processing

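Across 80 recalculations of the clock genes' log2 ratios (5 other scalings, pseudocounts of 1 and 5, and a correction for GC content and length), no ratio changed sign and 79 stayed inside the counting interval. The exception was Per1, at 1.64 with the GC and length correction. Total counts shifted every log2 ratio by -0.08, the largest shift among the scalings. That shift is larger than the lower log2 bound of Clock, 0.054, so the interval of Clock then includes a ratio of 1. The GC and length correction moved Npas2 from -0.31 to -0.27. Its upper log2 bound was -0.028 before, so its interval then includes a ratio of 1 too. The number of clock genes called as higher was 4 at 1.5-fold and 0 at 3-fold, against 2. The number called as lower was 3 at 1.5-fold and 2 with total counts, against 0. The negative-arm median was -0.72 for the Per and Nr1d genes, and the mean of that arm 0.21. The positive-arm median was 0.016 for Arntl and Npas2 alone. Over all genes, 1655 were higher and 1377 lower; these became 1045 and 695 with a filter of 5 CPM, 3187 and 2815 at 1.5-fold, and 781 and 554 at 3-fold. Of 192 recounts in the related lists, 18 moved by over 1.5 times. No paired analysis was possible because each group has 1 library and the labels give no replicate numbers. Depth gave the clock genes between 186 and 1837 counts a library, and counting intervals leave out differences between mice, which 1 library a group cannot show.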
